A study of Homo sapiens with 4 samples.

Results

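The EGF ligands and ERBB receptors are a growth factor family, and 10 of its genes were taken by name from the 36525 genes of the table: the receptor genes EGFR, ERBB2 and ERBB3 and the ligand genes EREG, HBEGF, TGFA, NRG1, EPGN, BTC and AREG. All 10 were found under their Ensembl IDs. RNA had been sequenced from 4 libraries of LM2 cells, 2 with hnRNPM knockdown and 2 controls, collected 48 h after plating. LM2 is a clonal, lung metastatic derivative of MDA-MB-231, a mesenchymal human breast cancer line, and was grown in medium with serum, itself a source of growth factors. In the knockdown group the RNA-binding splicing regulator hnRNPM was silenced, by an shRNA per the growth protocol and by an siRNA per the treatment label. The control group is labelled only as control. The labels do not say whether replicates were grown as separate cultures, so each p-value reflects the spread of these 4 libraries alone, and that spread may be technical.

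ERBB receptors are tyrosine kinases that pair when a ligand binds and then signal through RAS, ERK and PI3-kinase. Ligands are made as membrane-bound precursors that ADAM proteases cut free. EREG (epiregulin), HBEGF (heparin-binding EGF-like growth factor) and BTC (betacellulin) bind EGFR and ERBB4, while AREG (amphiregulin), TGFA (transforming growth factor alpha) and EPGN (epigen) bind EGFR. NRG1 (neuregulin) binds ERBB3 and ERBB4. ERBB2 has no known ligand of its own and ERBB3 has little kinase activity, so both act in pairs with other receptors. MDA-MB-231 is known as a breast cancer line with EGFR and without ERBB2 amplification.

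After hnRNPM knockdown, RNA of the ligands EREG and HBEGF rose, and no member was called lower. EREG was 2.22-fold and HBEGF 1.45-fold as high as in controls. The receptor ERBB3, at 2.14-fold, was called higher too, but it entered the test only through the knockdown libraries. Without a filter on low values none of these 3 passed (limma adjusted p = 0.0544 for EREG, 0.128 for HBEGF and 0.0690 for ERBB3). That fit covered 31636 genes and called 262 of them higher and 255 lower. On the deposited scale the HBEGF call also needed every library. EGFR was 0.778 times and NRG1 1.32 times the control level without passing, and both passed once the libraries were rescaled to one another. Levels are RPKM, read counts divided by transcript length and by library size, as the authors deposited them. Log2 fold changes were taken on log2(RPKM + 0.5), knockdown minus control, with the standard error (SE) from limma, and a gene is called at a Benjamini-Hochberg adjusted p under 0.05 over the 13627 genes with a mean of at least 1 RPKM. Of these genes 36.4% were called, 14.7% as higher and 21.8% as lower. Among the members, 7 of 10 reached that level; 3 of the 7 were called higher and 0 lower. At an unadjusted limma p under 0.05, which 6030 of the 13627 genes had in either direction, EGFR was the only member lower. Because ERBB3 is among the 3, these counts support nothing about the family as a whole.

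EREG, EPGN, AREG and BTC lie next to each other on chromosome 4, in the order EPGN, EREG, AREG, BTC among protein-coding genes of GRCh38.p14. Of these 4 neighbours EREG was the most abundant and the only one that could be tested, so its promoter is shown beside that of AREG, the adjoining gene, and that of HBEGF, the other ligand that rose. Each line gives the 250 bases before the start of transcription from RefSeq on GRCh38.p14, 5′ to 3′ on the gene's strand, and 8 of the 10 members had an entry, ERBB3 not among them. Capitals mark matches, on either strand, to the TATA box TATAAA, the cAMP response element TGACGTCA, the AP-1 site TGANTCA, the GC box GGGCGG and the CCAAT box CCAAT.
EREG, chr4:74364895-74365144, plus strand: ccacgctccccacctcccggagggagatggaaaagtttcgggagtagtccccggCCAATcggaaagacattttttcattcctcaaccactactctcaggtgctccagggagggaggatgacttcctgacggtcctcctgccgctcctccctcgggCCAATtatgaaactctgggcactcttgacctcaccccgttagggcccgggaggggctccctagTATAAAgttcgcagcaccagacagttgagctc
AREG, chr4:74444886-74445135, plus strand: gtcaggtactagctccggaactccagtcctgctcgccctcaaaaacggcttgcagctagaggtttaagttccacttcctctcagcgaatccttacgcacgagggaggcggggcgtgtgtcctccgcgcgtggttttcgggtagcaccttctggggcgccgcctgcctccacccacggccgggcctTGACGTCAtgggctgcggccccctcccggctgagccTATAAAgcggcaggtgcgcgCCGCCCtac
HBEGF, chr5:140346604-140346853, minus strand: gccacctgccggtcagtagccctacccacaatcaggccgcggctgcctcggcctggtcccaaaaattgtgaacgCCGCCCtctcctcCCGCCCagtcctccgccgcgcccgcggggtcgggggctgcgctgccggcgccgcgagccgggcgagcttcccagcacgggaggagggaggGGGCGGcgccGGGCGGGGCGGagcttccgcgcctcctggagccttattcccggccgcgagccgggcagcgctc

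The EREG window held a TATA box starting 32 bases before the start and CCAAT boxes at 95 and 196 bases before it. The AREG window held a TATA box at 29 bases and a cAMP response element at 65 bases before the start, and a GC box at 9 bases on the other strand. HBEGF had 5 GC boxes, 2 of them overlapping, and neither a TATA nor a CCAAT box in its window. Over 35116 RefSeq promoter windows of the same length, 10.7% held the TATA box, 1.65% the cAMP response element, 6.57% the AP-1 site, 42.6% the GC box and 32.0% the CCAAT box. These matches are letters in a reference sequence and were not tied to any value of the libraries.

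**Figure D1:**
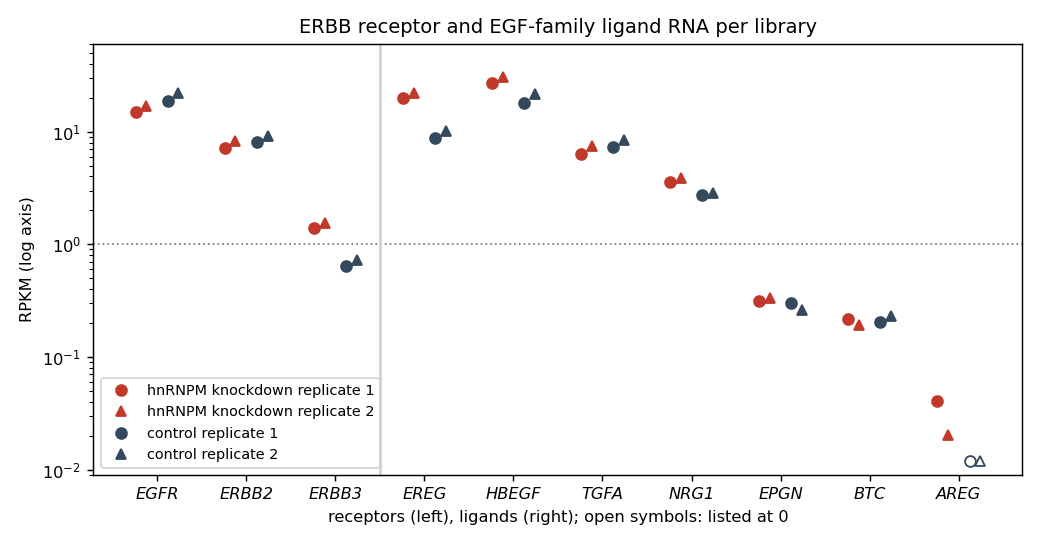
RPKM of the 3 receptor and 7 ligand genes in each library on a log axis, with hnRNPM knockdown in red and control in dark blue (circle, replicate 1; triangle, replicate 2; open symbols, listed at 0; dotted line, 1 RPKM). EREG, HBEGF, ERBB3 and NRG1 sit higher in both knockdown libraries than in either control library, and EGFR sits lower. Of all tested genes, 66.8% had groups that did not overlap. EPGN, BTC and AREG stay at or below 0.335 RPKM in every library, and of these EPGN and AREG also sit higher in knockdown.

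The targeted gene HNRNPM was at 11.5 and 12.95 RPKM in the knockdown libraries and at 88.6 and 102 RPKM in the control libraries (log2 fold change −2.91 ± 0.17, limma adjusted p = 1.48e-59). Estimated reads assigned to genes were 16.5 M and 18.3 M in the knockdown and 23.0 M and 26.6 M in the control libraries. All 6 listed mesenchymal markers of this kind of line, VIM, FN1, CD44, AXL, SPARC and ZEB1, were above 1 RPKM in every library, and of 6 luminal markers GATA3 and KRT19 were above 1 RPKM and ESR1 and FOXA1 below 0.1 RPKM in every library, with EPCAM between 0.9098 and 1.25 RPKM. The luminal markers summed to 7.59 and 8.87 RPKM in knockdown and 7.23 and 7.58 RPKM in control libraries; among them CDH1 was at 0.717 and 0.990 RPKM in knockdown and 0.0774 and 0.0629 RPKM in control libraries. Summed over 4 leukocyte markers, the level was 5.29 and 7.15 RPKM in knockdown and 1.29 and 1.47 RPKM in control libraries; CD14 made up nearly all of it, and PTPRC and CD3E, which define leukocytes and T cells, were at or below 0.0158 RPKM in every library. The 4 fibroblast markers summed to 28.8 and 31.9 RPKM in knockdown and 10.3 and 12.3 RPKM in control libraries, mostly COL1A1, with LUM at 1.37 and 1.36 RPKM in knockdown and 0.0238 and 0.0397 RPKM in control libraries and DCN at or below 0.0125 RPKM in every library. The endothelial markers CDH5 and VWF stayed at or below 0.0451 RPKM. The part of CD14, CDH1, COL1A1 and LUM in the results on the family was not tested. In such bulk RNA, fewer cells with a transcript and less transcript per cell cannot be told apart.

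The second replicate was higher than the first in both groups for all 7 tested members, by 1.09 to 1.17 times in the knockdown and 1.04 to 1.20 times in the control libraries. RPKM summed over all genes was also higher in the second replicate, at 163078 and 180958 in knockdown and 162466 and 187293 in control libraries. The deposited scale thus does not even out the total within a group, and its SEs include this difference between replicates. The implied read totals were equal within each group, so a difference in sequencing depth between replicates would remain in these values. How much of the replicate difference is sequencing depth was not tested. Median-ratio scaling divides each library by its typical ratio to the others. With it the median SE of all tested genes was 0.054 in place of 0.175, and the share of genes called was 61% (30.8% higher, 30.2% lower). Beyond the 3 calls above, this scaling called NRG1 higher and EGFR lower among the members, 4 and 1 in all. With the replicate number as a block, 4 members were called higher and 2 lower, where 54.5% of genes were called (22.8% higher, 31.7% lower).

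Among the receptors, EGFR, the receptor for most EGF-family ligands, had 15.0 and 16.8 RPKM in the knockdown libraries and 18.8 and 22.1 RPKM in the control libraries. Both knockdown values lay below both control values, with no overlap; 66.8% of tested genes had groups that did not overlap. EGFR averaged 15.9 ± 1.26 RPKM in knockdown and 20.5 ± 2.31 RPKM in control libraries (SD, n = 2 each), a log2 fold change of −0.35 with an SE of 0.17 (limma adjusted p = 0.104). With median-ratio scaling the values were 16.2 and 16.3 in knockdown and 19.6 and 20.0 in control libraries. The change was then −0.28 ± 0.022 (limma adjusted p = 0.00198), a call that the unscaled values did not give. The gene EGFR-AS1, antisense to EGFR and sharing 186 of its 12521 annotated exon bases, was at 1.21 and 1.48 RPKM in knockdown and 2.09 and 2.66 RPKM in control libraries (log2 fold change −0.64, limma adjusted p = 0.00343). Whether the counting used strand is not given, so reads of EGFR and EGFR-AS1 cannot be told apart there. Leaving out control replicate 2 ended the EGFR-AS1 call (limma adjusted p = 0.112), as did leaving out knockdown replicate 1 (0.155).

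ERBB2, the shared partner receptor, had 7.19 and 8.29 RPKM in knockdown and 8.04 and 9.13 RPKM in control libraries. These ranges overlapped. The log2 fold change was −0.14 ± 0.18 (limma adjusted p = 0.561) with a 95% interval of −0.49 to 0.20, and −0.069 with an interval of −0.17 to 0.027 after median-ratio scaling. A change in either direction up to those bounds is thus not excluded. ERBB2 shares exon positions on the opposite strand with MIEN1 (571 bases) and PGAP3 (194 bases). MIEN1 was at 8.46 and 10.2 RPKM in knockdown and 15.4 and 16.6 RPKM in control libraries (−0.75, limma adjusted p = 0.000135; 0.0611 without control replicate 2 and 0.173 without knockdown replicate 1).

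ERBB3, the neuregulin receptor, was the lowest of the 3 receptors, at 1.399 and 1.53 RPKM in knockdown and 0.647 and 0.726 RPKM in control libraries. The groups did not overlap, and the estimated reads were 375 and 411 in knockdown and 245 and 275 in control libraries. The rise was 2.14-fold, with a log2 fold change of 0.73 ± 0.20 (limma adjusted p = 0.00177), understated at this low level by the added 0.5: with an added 0.1 it was 0.995. With 1 library left out the limma adjusted p of ERBB3 lay between 0.00882 and 0.0402, which is no independent support, since its control mean of 0.686 RPKM was below the level needed for the test. The remaining receptor of the family, ERBB4, which was not a member, had 3 and 1 estimated reads in the knockdown and 3 and 1 in the control libraries.

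**Figure D2:**
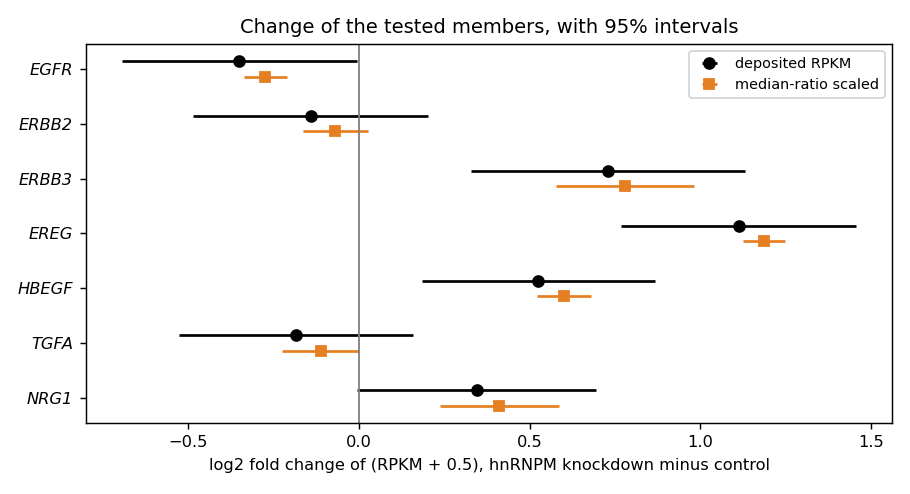
Log2 fold change of (RPKM + 0.5), hnRNPM knockdown minus control, for the 7 tested members with 95% intervals from limma, on deposited RPKM (black circles) and after median-ratio scaling (orange squares). The intervals of ERBB3, EREG and HBEGF lie above 0 on both scales, and that of EGFR lies below 0 on both. Those of ERBB2 and TGFA include 0 on both, and that of NRG1 includes 0 on deposited RPKM only. The intervals are not adjusted for the number of genes tested. On deposited RPKM, 6030 of the 13627 tested genes had an unadjusted limma p under 0.05, and EGFR was not called. ERBB3 entered the test only through the knockdown libraries.

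Of the 4 tested ligands, EREG had the largest log2 fold change. Its level was 19.9 and 22.0 RPKM in knockdown and 8.73 and 10.1 RPKM in control libraries. Both knockdown values lay above both control values, with 3367 and 3735 reads in knockdown and 2091 and 2429 reads in control libraries. EREG averaged 20.9 ± 1.53 RPKM in knockdown and 9.44 ± 0.998 RPKM in control libraries (SD, n = 2 each), a log2 fold change of 1.11 with an SE of 0.18 (limma adjusted p = 4.41e-09). After median-ratio scaling the knockdown libraries stood at 21.4 and 21.4 and the control libraries at 9.102 and 9.18. EREG passed without any 1 library (limma adjusted p from 0.00165 to 0.0169).

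HBEGF, also the receptor for diphtheria toxin in its membrane-bound form, was the most abundant ligand in every library. It had 27.0 and 30.3 RPKM in knockdown and 18.0 and 21.6 RPKM in control libraries. The lowest knockdown value lay above the highest control value. The log2 fold change was 0.52 ± 0.17 (limma adjusted p = 0.00986). Median-ratio scaling gave 0.60 ± 0.028 (limma adjusted p = 0.000706). On the deposited scale the call was lost whenever 1 library was left out: the limma adjusted p was 0.198 and 0.0702 on dropping control replicates 1 and 2 in turn, and 0.200 and 0.385 on dropping knockdown replicates 1 and 2, while the log2 fold change stayed between 0.40 and 0.65.

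TGFA had 6.32 and 7.40 RPKM in knockdown and 7.25 and 8.48 RPKM in control libraries. The groups overlapped on this scale, but not after median-ratio scaling (6.82 and 7.20 in knockdown, 7.56 and 7.68 in control libraries). The log2 fold change of −0.19 ± 0.18 did not pass (limma adjusted p = 0.431, 95% interval −0.53 to 0.16). With upper-quartile scaling it passed narrowly (−0.15, adjusted p = 0.0483), as it did with the replicate number as a block (adjusted p = 0.0448), and with median-ratio scaling it did not (adjusted p = 0.0763). NRG1 had 3.56 and 3.87 RPKM in knockdown and 2.76 and 2.88 RPKM in control libraries. These groups did not overlap, yet the log2 fold change of 0.34 ± 0.18 did not pass (limma adjusted p = 0.119; 0.00872 with median-ratio scaling, where it was 0.41).

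The other 3 ligands were near the lower end of detection and were not tested. EPGN had 0.316 and 0.335 RPKM (17 and 18 reads) in knockdown and 0.303 and 0.263 RPKM (23 and 20 reads) in control libraries, a ratio of 1.15 with an exact 95% interval of 0.714 to 1.84 for counting error only. BTC had 0.216 and 0.192 RPKM (18 and 16 reads) in knockdown and 0.203 and 0.229 RPKM (24 and 27 reads) in control libraries, a ratio of 0.942 (0.592 to 1.48). Changes within these intervals were not detectable at this depth. AREG was at 0.0409 and 0.0205 RPKM, or 2 and 1 reads, in knockdown libraries and listed at 0 in both control libraries, and no fold is given since 3 reads in all is the limit that a count of 0 allows. RefSeq gives AREGB as a synonym of AREG, and an ID with no name in the reference tables, ENSG00000205595, carried almost the same values as AREG in all 4 libraries: 0.0409 and 0.0205 RPKM in knockdown and 0 in both control libraries. How reads with several matches were treated is not given, so the level of AREG is uncertain.

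The order of the members by mean level differed between the groups. In the knockdown libraries it ran HBEGF, EREG, EGFR, ERBB2, TGFA, NRG1, ERBB3, EPGN, BTC and AREG, and only ERBB2 and TGFA overlapped among neighbours. In the control libraries it ran EGFR, HBEGF, EREG, ERBB2, TGFA, NRG1, ERBB3, EPGN, BTC and AREG, with overlaps between EGFR and HBEGF, EREG and ERBB2, and ERBB2 and TGFA. EREG and HBEGF each stood above EGFR in both knockdown libraries and below it within each control library.

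Ratios between members of the same library do not depend on its scaling. EREG over EGFR was 1.32 and 1.31 in the knockdown and 0.464 and 0.459 in the control libraries. HBEGF over EGFR was 1.799 and 1.80 in the knockdown and 0.958 and 0.978 in the control libraries. EGFR over ERBB2 was 2.09 and 2.03 in the knockdown and 2.34 and 2.42 in the control libraries, so EGFR was lower relative to ERBB2 as well. NRG1 over ERBB3 went down, from 4.26 and 3.96 in the control to 2.54 and 2.52 in the knockdown libraries. In each of these ratios the groups lay far apart compared with the spread inside a group. How often other pairs of genes lie apart in this way was not tested. No exact permutation test was made, because the smallest two-sided p that 2 against 2 libraries allow is 0.333.

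Summed over the 7 ligands, RNA was at 57.3 and 64.2 RPKM in the knockdown and 37.3 and 43.6 RPKM in the control libraries. EREG made up 34.5% ± 0.215 of that sum in knockdown and 23.3% ± 0.116 in control libraries (SD, n = 2 each). TGFA made up 11.3% ± 0.361 in knockdown and 19.5% ± 0.00841 in control libraries. HBEGF kept close to the same share, 47.2% ± 0.0846 in knockdown and 49.0% ± 0.831 in control libraries. The 3 receptors summed to 23.6 and 26.6 RPKM in the knockdown and 27.5 and 32.0 RPKM in the control libraries, and their ranges did not overlap. ERBB3 made up 5.84% ± 0.114 of receptor RNA in knockdown and 2.31% ± 0.0545 in control libraries, while EGFR made up 63.4% ± 0.364 in knockdown and 68.8% ± 0.514 in control libraries.

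**Figure D3:**
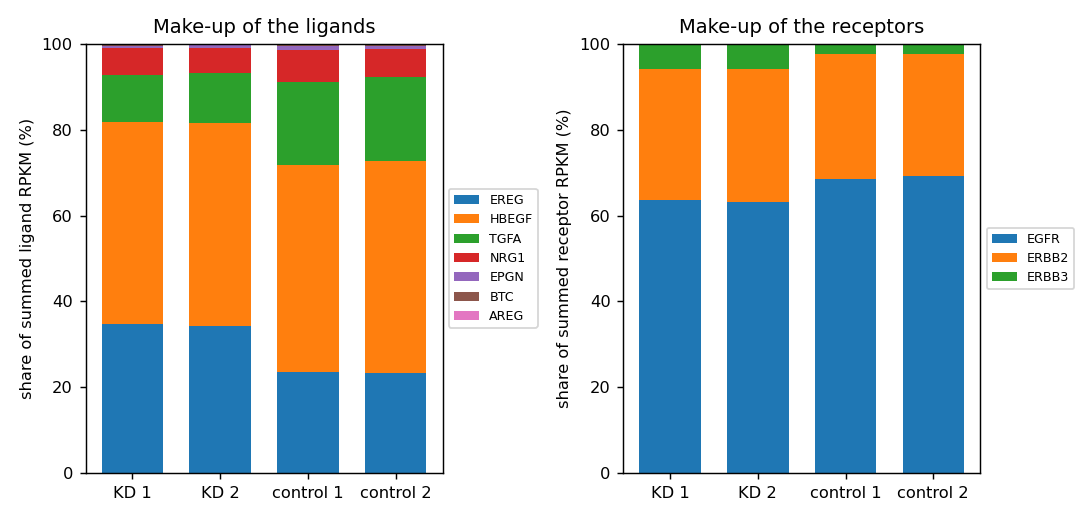
Share of each gene in the summed RPKM of the 7 ligands (left) and of the 3 receptors (right), with 1 bar per library (KD, hnRNPM knockdown). EREG takes 34.3% to 34.6% of ligand RNA in knockdown and 23.3% to 23.4% in control libraries; ERBB3 takes 5.76% to 5.92% of receptor RNA in knockdown and 2.27% to 2.35% in control libraries.

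Genes whose pattern over the 4 libraries was nearest to the 3 members with the largest changes were found by the Euclidean distance of log2(RPKM + 0.5) after subtracting each gene's mean. Nearest to EREG were CSF1, a macrophage growth factor, HACD2 and the hypoxia-inducible factor gene EPAS1 (distances 0.0168, 0.0198 and 0.0218). CSF1 was at 26.3 and 28.8 RPKM in knockdown and 11.6 and 13.3 RPKM in control libraries. Nearest to ERBB3 were FRS2, an adaptor of fibroblast growth factor receptors, PDP2 and NMT2 (0.0160, 0.0271 and 0.0372), and nearest to HBEGF were TMEM170A, CTNNAL1 and DHDDS (0.00332, 0.0093 and 0.00971). With 2 groups of 2 libraries, such likeness is mostly a like fold change.

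The remaining family genes, EGF, NRG2, NRG3 and NRG4, were all low. EGF itself had 0.308 and 0.314 RPKM in knockdown and 0.265 and 0.331 RPKM in control libraries, and the groups overlapped. NRG4 was at 0.158 and 0.142 RPKM in knockdown and 0.124 and 0.159 RPKM in control libraries, and NRG2 at 0.0392 in both knockdown and 0.0416 and 0.102 RPKM in control libraries. NRG3 was listed at 0 in all 4. With EGF and NRG2 to NRG4 counted in, the share of EREG was 34.2% in knockdown and 23.1% in control libraries.

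The proteases that release ligands changed in both directions. Of 9 listed sheddases and iRhoms, 8 were tested, of which 3 rose, 3 fell and 2 were not called; their median log2 fold change was 0.16, and that of all tested genes −0.069. Over all tested genes 14.7% were called higher and 21.8% lower. The untested gene, ADAM12, named after its values were seen, was below the level needed for the test. It was at 0.168 and 0.192 RPKM in knockdown and 0.529 and 0.533 RPKM in control libraries. ADAM17, the main sheddase of HBEGF, EREG, AREG and TGFA, was at 13.0 and 14.9 RPKM in knockdown and 5.37 and 5.96 RPKM in control libraries (1.23 ± 0.18 SE, limma adjusted p = 6.35e-11). ADAM9 was at 41.8 and 46.6 RPKM in knockdown and 22.5 and 26.0 RPKM in control libraries (0.85, limma adjusted p = 9.02e-06; 0.0755 without knockdown replicate 2). RHBDF2, which codes for iRhom2, a partner that helps mature ADAM17, fell to 1.16 and 1.204 RPKM in knockdown, against 2.65 and 2.95 RPKM in control libraries (−0.97, limma adjusted p = 2.75e-06). The other listed iRhom gene, RHBDF1, named after its values were seen, was not called (0.042, limma adjusted p = 0.886). It was at 2.06 and 2.59 RPKM in knockdown and 2.03 and 2.45 RPKM in control libraries. ADAM15 fell too (−0.61), but dropping control replicate 2 or either knockdown library ended that call (limma adjusted p = 0.0891, 0.241 and 0.0941). The other called genes, named after their values were seen, were ADAM10, the main sheddase of BTC and EGF (0.57), and BACE1, which cuts NRG1 (−0.51); neither passed in any fit on 3 libraries (limma adjusted p between 0.0576 and 0.412). Those fits called 1 to 2 genes of the list higher and 1 to 2 lower; knockdown replicate 2 was the library without which only ADAM17 was called higher.

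Of 17 tested adaptors and proximal signalling genes, 1 rose, 5 fell and 11 were not called; the median was −0.22, against −0.069 for all tested genes. The share called was close to the 36.4% of all tested genes. Median-ratio scaling gave 4 that rose and 10 that fell, where 30.8% of all genes were called higher and 30.2% lower. PTPN11, which codes for the phosphatase SHP2 (−0.66), and the PI3-kinase catalytic genes PIK3CA (−0.66) and PIK3CB (−0.59) fell; dropping control replicate 2 or knockdown replicate 1 ended all 3 calls, and dropping knockdown replicate 2 ended those of PTPN11 and PIK3CB (limma adjusted p between 0.0510 and 0.220). On dropping control replicates 1 and 2 in turn, 4 and 1 of the list fell, and on dropping knockdown replicates 1 and 2, 1 and 2 fell. The adaptors NCK1 (0.47) and NCK2 (−0.49), named after their values were seen, passed in none of those 4 fits (limma adjusted p between 0.0720 and 0.5001). GRB2, which links receptors to RAS, was at 26.3 and 29.5 RPKM in knockdown and 29.3 and 34.6 RPKM in control libraries and was not called (limma adjusted p = 0.412; 0.0166 with median-ratio scaling, at −0.11; also named after its values were seen).

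Among 13 tested inhibitors and phosphatases of the receptors, 6 rose, 2 fell and 5 were not called, and the median was 0.22. Of all tested genes 36.4% were called. Under median-ratio scaling 8 rose and 3 fell, and 61% of all genes were called. CBLB, a ubiquitin ligase that marks receptors for breakdown, was at 1.699 and 1.93 RPKM in knockdown and 0.413 and 0.440 RPKM in control libraries (1.32 ± 0.21 SE, limma adjusted p = 3.14e-09). It reached the expression level needed for the test only through the knockdown libraries, so its place among the 6 supports nothing about the list. SOCS5 rose as well (0.89). LRIG1, a membrane protein that lowers ERBB receptor levels, fell to 2.29 and 2.65 RPKM in knockdown, against 5.15 and 5.67 RPKM in control libraries (−0.99, limma adjusted p = 2.72e-07), and UBASH3B fell by 0.63 on the log2 scale. ERRFI1 (MIG6), an inhibitor of the EGFR kinase chosen after its values were seen, was at 50.2 and 56.0 RPKM in knockdown and 33.5 and 38.7 RPKM in control libraries (0.55, limma adjusted p = 0.00557). Whichever library was dropped, 2 genes of the list were called higher, CBLB being 1 of them; ERRFI1 was not among them (limma adjusted p between 0.0706 and 0.352), and UBASH3B stayed called only on dropping control replicate 1 (otherwise 0.0969 to 0.2295).

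Of 14 tested genes of receptor endocytosis and sorting, 4 rose, 1 fell and 9 were not called; the median was 0.089. The share called was close to the 36.4% of all tested genes. Median-ratio scaling gave 7 that rose and 4 that fell, where 30.8% of all genes were called higher and 30.2% lower. EPN1 (epsin 1, 0.65), EPS15 (0.51), STAM (0.42) and STAM2 (0.43, named after its values were seen) rose and HGS, which sorts receptors to lysosomes, fell (−0.51). When 1 library was left out, at most 1 gene was called higher and 0 lower (EPN1 without control replicate 2).

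Genes that growth factor signals induce through ERK were mostly lower. Of 13 tested, 0 rose, 10 fell and 3 were not called; their median was −0.77, and that of all tested genes −0.069, with 21.8% called lower. EGR1, 1 of the 10 and named after its values were seen, averaged 0.846 RPKM in knockdown and 1.90 RPKM in control libraries and so entered the test only through the control libraries. DUSP6, an ERK phosphatase, fell to 11.2 and 12.7 RPKM in knockdown, against 23.7 and 27.5 RPKM in control libraries (−1.07 ± 0.17 SE, limma adjusted p = 1.98e-08). DUSP4 (−1.18) and the ETS factor genes ETV5 (−1.11) and ETV4 (−1.05) fell similarly. The 3 that did not pass were DUSP5, SPRY2 and PHLDA1, named after their values were seen; with median-ratio scaling SPRY2 was called higher (0.14, limma adjusted p = 0.0436). On dropping control replicates 1 and 2 in turn, 8 and 5 fell, and on dropping knockdown replicates 1 and 2, 5 and 7 fell. Earlier results of these data were known when the list was written, so its direction is not independent evidence.

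**Figure D4:**
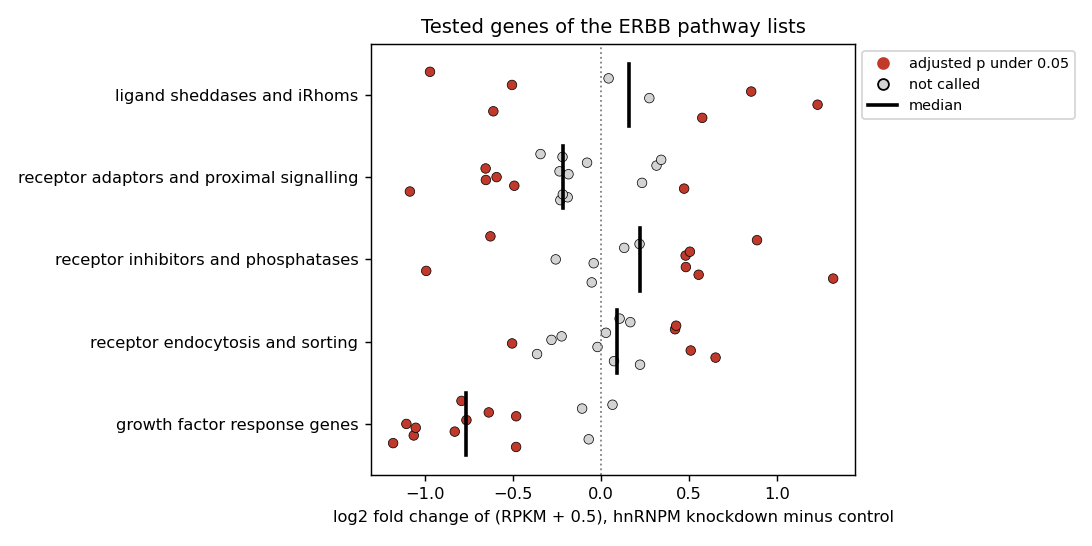
Log2 fold change of (RPKM + 0.5), hnRNPM knockdown minus control, of each tested gene in 5 ERBB pathway lists (red, adjusted p under 0.05; grey, not called; black bar, median of the list). Of the growth factor response genes, 10 of 13 are red and all 10 lie below 0; the other lists hold red points on both sides of 0.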

How the data were processed

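The authors deposited 1 table of RPKM values for 4 libraries; the tools and builds named are Bowtie 0.12.7 and hg19, per the submitters' processing notes. How reads were counted, whether by strand, and over which total is not stated by the labels or headers. IDs were matched to current symbols, then to GENCODE 29 (32172 and 136 of 36525; 4217 unnamed); 0 sample columns were left unused, and genes of chromosomes 20, 21 and 22 were not analysed here. Steps between low values, with GENCODE 29 exon lengths, implied read totals of 29.7 M for both knockdown and 41.9 M for both control libraries, at which 82.1% of 40970 low values were whole within 0.1 read; reads quoted are these estimates, and floors and intervals on them cover counting error only.

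limma 3.58.1 (R 4.3.3) was fitted to log2(RPKM + 0.5) on group alone, with a variance trend and Benjamini-Hochberg adjustment, after being tested on simulated data. It estimated no spread of variance between genes beyond the trend, so very small p-values rest on a shared variance. Members and lists were chosen with earlier results of these data known. Named genes were all members, HNRNPM and up to 4 tested genes per list with the smallest p; a gene that the rule names and a marker are not reported here. Of 79 listed pathway genes, PLCG1, SRC, PTPN1 and ITCH lie on chromosome 20 and IER3 was not matched. Alternatives were other scalings, pseudocounts, filters, variance models, a replicate block and leaving out each library.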

Additional observations from a re-analysis of the deposited data

How the results depend on the processing

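Every tested member kept its direction under all 13 alternatives, or 12 for ERBB3 and NRG1, which the filter at 5 RPKM removed. Members called higher numbered 3, and 0 without a filter on low values (EREG adjusted p = 0.0544, where 262 genes were called higher and 255 lower in all); the pathway genes named above lost their calls there too; leaving out 1 library gave 2 each time. Members called lower numbered 0, against 1 with median-ratio scaling, 2 with upper-quartile scaling (EGFR and TGFA), 2 with the replicate number as a block and 1 with that block and median-ratio scaling; leaving out 1 library gave 0. The replicate block called the same 3 members higher plus NRG1 (4), and EGFR and TGFA lower. The labels do not say that replicate numbers pair the libraries. Across genes, the replicate differences of the 2 groups correlated at 0.031. That value leaves out an offset common to all genes, such as the higher second replicate, so it does not decide whether libraries were paired. Over all genes, the count called higher was 2000, and 4192 with median-ratio scaling, 3860 with upper-quartile scaling, 1047 with the filter at 5 RPKM, 3109 with the replicate block, 3856 with the block and median-ratio scaling, and 759 to 1158 when 1 library was left out. The count called lower was 2964, and 4122 with median-ratio scaling, 4432 with upper-quartile scaling, 4318 with the replicate block, 3738 with the block and median-ratio scaling, 1321 with the filter at 5 RPKM and 1057 to 2007 when 1 library was left out. All fits with 1 library left out used deposited RPKM, which keeps the difference between replicates, and none was run on rescaled values. With 2 libraries a group, a library left alone is assumed to vary like the others. Depth limits EPGN, BTC and AREG, each with at most 27 reads in a library.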
